A study of Rattus norvegicus with 12 samples.

Results

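Scavenger receptors are surface proteins with which macrophages (Mφs) bind and take up modified lipoproteins, haemoglobin, dying cells and other debris. Several of them, together with the haem-degrading enzyme haem oxygenase 1, mark the tissue-resident and alternatively activated Mφs that clear material rather than the inflammatory cells newly arrived from blood. In the uterine cervix, Mφs are a normal part of the stroma and are studied for their part in the remodelling that precedes birth. The genes described here were 10 named in advance: Cd163, Mrc1, Msr1, Marco, Stab1, Lyve1, Cd36, Hmox1, Folr2 and Timd4. A probe was taken for a gene where the name in the scanner files equalled its symbol. This gave 9 probes for 8 of the 10 genes, out of 30367 probes and 26612 gene names on the array. Stab1 and Timd4 had no probe of that name and are not analysed here. The question was whether the higher Cd163 signal at the end of pregnancy, which was known when the genes were chosen, was shared by the others.

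The RNA came from dispersed cervix cells of adult Sprague Dawley rats, 3 in each of 4 groups, with a separate array for each rat. NP rats were nonpregnant and in proestrus, and D21 rats were at day 21 after breeding, usually the day before birth. Whole cervix cells were frozen after collagenase digestion, whereas Mφ-depleted cells were first incubated with the ED1 antibody, which recognises CD68, and drawn over magnetic beads. All rats were perfused with saline through the heart, and no transgene or deletion was reported for them. Whole and depleted samples came from different animals, and the depleted cells had a longer path from digestion to freezing, so the effect of removing cells and that of the antibody and bead steps cannot be told apart. In bulk RNA, fewer cells of a type and less RNA per cell also cannot be told apart. Levels are log2 probe intensities relative to the 75th percentile of the same array, and since probes differ in brightness a level is compared only with the same probe on other arrays.

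Between 44.9% and 61.8% of the probes were well above background on an array. Mφ identity was checked on 15 genes that were not among the receptors. Their mean log2 level per rat was 0.98 to 2.27 in whole NP cervix, 1.18 to 1.33 in whole D21 cervix and -3.35 to -2.71 in the depleted cells. Csf1r, the receptor for the Mφ growth factor M-CSF, averaged 1.71 ± 0.26 in D21 and 1.44 ± 0.37 in NP whole cervix (SD, n = 3), and -5.03 ± 0.72 and -5.25 ± 0.67 after depletion. Cd68, whose product is the ED1 antigen, went another way: it averaged 0.74 ± 0.55 and 0.16 ± 0.33 in D21 and NP whole cervix and 0.89 ± 1.15 and -0.39 ± 1.13 after depletion. The depleted cells were also poorer in stromal transcripts. Of 10 smooth muscle genes, all 10 were higher in whole than in depleted NP cervix and 6 in D21 cervix, and of 10 fibroblast genes 9 and 5 were.

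The probes behind the 4 genes on which the comparison turns are shown because each level below is the signal of this single stretch of transcript. They are printed as the files give them, with no base marked, and their positions are those of the files on rn4. The Cd163 probe lies at chr4:160423704-160423763, that of Hmox1 at chr19:13969336-13969395 and that of Msr1 at chr16:56293586-56293645. The Mrc1 probe, at chr17:88489156-88491763, covers 2608 bases of genome with 60 bases and therefore joins separate exons. The Hmox1 probe was spotted 10 times on each array and the other 3 once.
Cd163: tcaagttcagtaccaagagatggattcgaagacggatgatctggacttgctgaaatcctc
Mrc1: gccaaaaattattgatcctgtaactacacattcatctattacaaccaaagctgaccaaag
Hmox1: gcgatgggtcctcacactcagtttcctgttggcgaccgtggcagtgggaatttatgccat
Msr1: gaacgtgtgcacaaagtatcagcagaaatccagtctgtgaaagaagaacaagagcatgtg

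In whole cervix, Cd163 and Hmox1 rose at D21, 2 of the 7 genes that could be tested. Cd163 was 12.2-fold and Hmox1 8.64-fold higher than in NP cervix. The mannose receptor Mrc1 was 2.58-fold higher with no overlap between groups but did not pass the test in the fit of all 12 arrays. Lyve1, Folr2, Cd36 and Msr1 differed by less than 2-fold. A gene was called where limma's unadjusted p was below 0.01 and the change at least 2-fold, the limit set in the study's methods, and by that rule 5.38% of the 14063 genes tested were called higher and 3.09% lower. None of the 7 was called lower or had an unadjusted p below 0.05 in that direction. Their median log2 difference was 0.61, against -0.08 over all genes tested. Since Cd163 was known to rise when the genes were chosen, the count without it is 1 of 6, Hmox1, with a median of 0.59.

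Cd163 is the receptor through which Mφs take up haemoglobin bound to haptoglobin. Its log2 level was 0.53, 0.27 and 0.71 in the 3 D21 whole cervices and -3.78, -2.64 and -2.88 in the 3 NP whole cervices. The groups were far apart, and NP rat 8 was not well above background. The difference was 3.61 ± 0.50 (log2, SE), with a 95% interval of 2.50 to 4.71 and a limma adjusted p of 0.00438. With normexp background correction, which adds an offset and so narrows differences from dim signals, it was 2.22 and still called. Because Cd163 had been singled out for this rise, the values describe it and do not test it anew.

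Hmox1 encodes haem oxygenase 1, which opens the haem ring and releases iron. Its level was 4.24, 1.96 and 2.58 in D21 and 0.20, -1.29 and 0.53 in NP whole cervix, so that all 3 D21 rats were higher, with D21 rat 5 highest and NP rat 9 lowest. The difference was 3.11 ± 0.62, with a 95% interval of 1.74 to 4.48 and a limma adjusted p of 0.0192. It did not pass the unequal-variance test named in the study's methods, nor, with a difference of 2.39, the fit with the slide as a block. In a list of 13 tested genes of the oxidant and cell-handling response, 4 were also called higher at D21: the oxidant-response genes Gclc (1.57 ± 0.30, adjusted p = 0.0156), Nqo1 (1.44 ± 0.38, 0.0478) and Srxn1 (1.36 ± 0.31, 0.0312), and the immediate-early gene Fos (2.53 ± 0.38, 0.00621). Their part in the Hmox1 values was not tested.

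Mrc1, the mannose receptor CD206, binds glycoproteins and collagen fragments and is widely used as a marker of alternatively activated Mφs. Its level was 0.02, -0.44 and -0.19 in D21 and -1.53, -1.53 and -1.65 in NP whole cervix. The groups were separate and tight, with SDs of 0.23 and 0.07, whereas the depleted cells, all of them not well above background, had SDs of 0.99 and 1.47. The limma fit of all 12 arrays shares 1 spread per gene among the 4 groups, and there the difference was 1.37 ± 0.64 with an interval of -0.04 to 2.77 and an adjusted p of 0.234. A fit of the 6 whole arrays alone gave the same difference and a call, as did the unequal-variance test of the study's methods. So did 6 other alternatives, 5 of which kept most or all of the 12 arrays (quantile normalization, array weights, the slide or the scan day as a block, and leaving out NP depleted rat 7), the other being the centring described below. The call on Mrc1 thus depended on the processing, while its difference lay between 1.10 and 1.82 in every alternative run.

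Lyve1 encodes a hyaluronan receptor of lymphatic endothelium that is also carried by perivascular resident Mφs. Its level was 1.30, 0.87 and 0.92 in D21 and 0.47, 0.07 and 0.87 in NP whole cervix. The lowest D21 and highest NP rats nearly touched, and the difference of 0.56 ± 0.42 (95% interval -0.36 to 1.48) did not pass, with a limma adjusted p of 0.456. Of the lymphatic markers measured beside it, Prox1 stayed at background on all 12 arrays, and none of the 5 lymphatic genes tested was called by limma, 1 being higher at an unadjusted p below 0.05. Cd163, Hmox1, Mrc1 and Lyve1 were the 4 genes in which no D21 rat overlapped an NP rat, or 3 of 6 without the preselected Cd163, where 20.0% of all genes were higher without overlap.

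The other 4 genes overlapped between the groups. Folr2, the folate receptor beta of resident Mφs, measured 2.34, 3.30 and 2.35 in D21 and 1.99, 1.48 and 2.66 in NP whole cervix, a difference of 0.61 ± 1.10 (95% interval -1.80 to 3.03). Cd36, which takes up oxidised lipoproteins and fatty acids and is also made by endothelium and adipocytes, measured 0.27, 0.67 and 0.55 against -0.56, 0.57 and 0.61. Only NP rat 8 was low for it, and the difference was 0.29 ± 0.37 (95% interval -0.52 to 1.10), with 0.45 ± 0.70 at its second, dimmer probe. Msr1, the class A scavenger receptor for acetylated lipoprotein, measured -2.24, -2.89 and -3.45 against -2.78, -3.35 and -1.69, a difference of -0.25 ± 1.16 (95% interval -2.79 to 2.29). The intervals of Folr2 and Msr1 include changes of more than 2-fold in either direction. Marco, a class A receptor of alveolar and splenic marginal zone Mφs, was not well above background in any whole cervix and was not tested there. It was detected in 2 depleted samples, D21 rat 2 (-4.39) and NP rat 6 (-4.31).

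**Figure D1:**
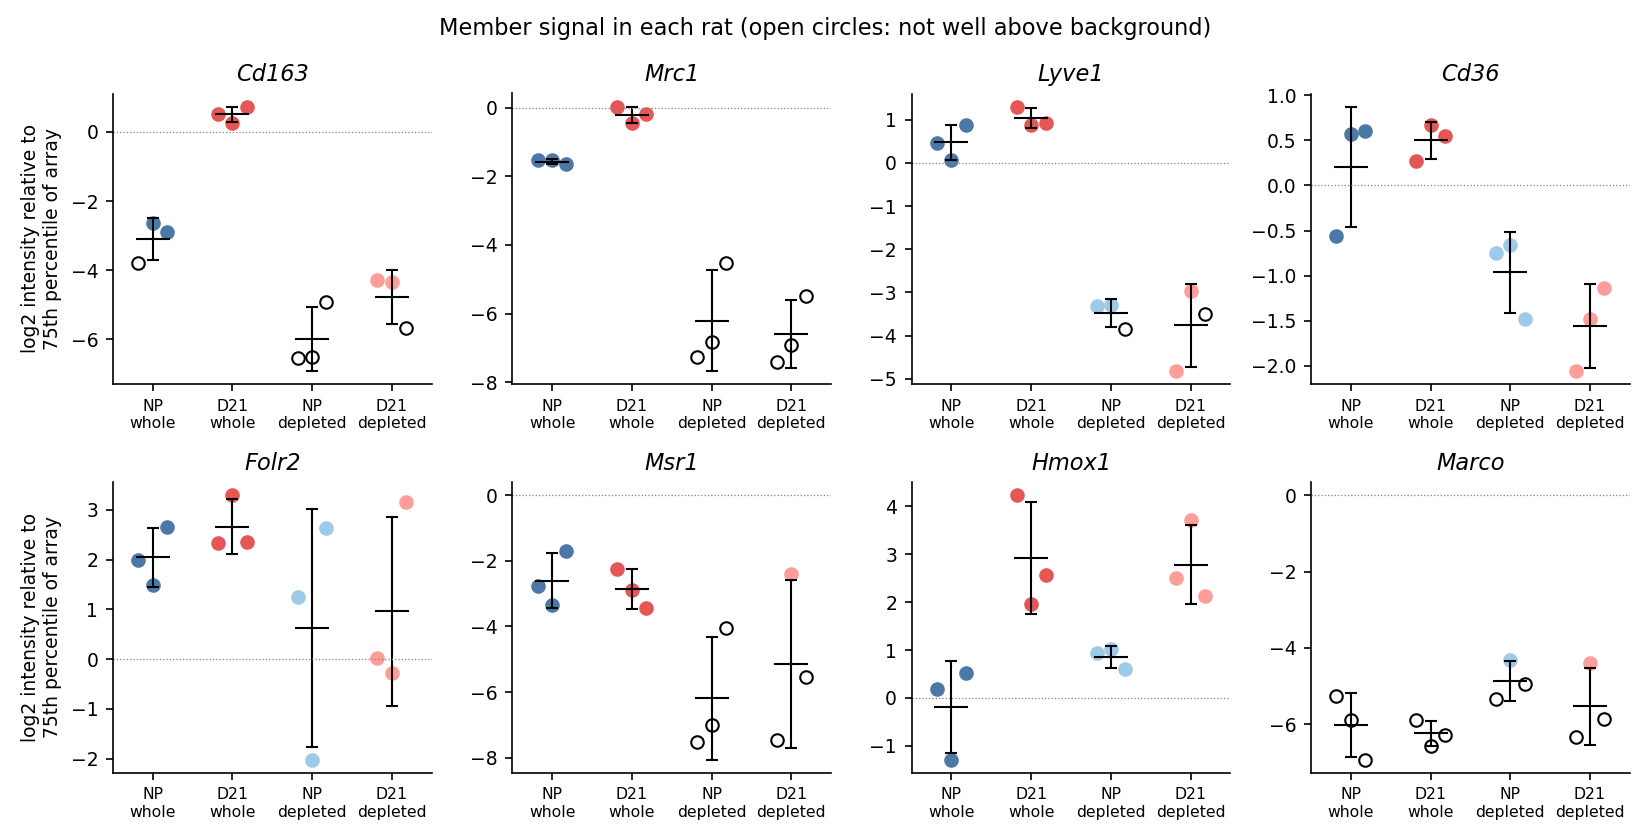
Log2 probe intensity, scaled to each array's 75th percentile, for the 8 genes with a probe, 1 point per rat, with the mean and SD of each group of 3; open circles are probes not well above background and each panel has its own scale. The D21 whole points of Cd163 (0.27 to 0.71) lie far above the NP whole points (-3.78 to -2.64), those of Hmox1 are high in D21 with and without Mφs, and Marco is at background in all whole cervices.

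Transcripts of other cell types differed between the whole cervices too. Of 10 epithelial genes 7 were called higher at D21, with Krt18 up by 2.60 ± 0.45 and Krt8 by 2.08 ± 0.50 log2 units, and 3 of 10 smooth muscle genes were called lower. Neither the 15 Mφ identity genes nor 6 monocyte genes held a limma call at D21, 2 and 1 being lower at an unadjusted p below 0.05, and their median log2 differences were -0.57 and -0.93. The part of these shifts in the levels of the receptors was not tested.

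The receptors were therefore also set against the Mφ identity genes of the same array, by centring each of the 6 whole arrays on their mean. On this scale 3 of the 7 genes were called higher, against 9.07% of all genes, the median over all genes being 0.37 on this scale. The 3 include Cd163, which was known to rise when the genes were chosen, the others being Hmox1 and Mrc1. Cd163 was 4.06 ± 0.52 log2 units higher at D21 relative to the identity genes (limma adjusted p = 4.67e-04), Hmox1 3.57 ± 0.54 (0.00136) and Mrc1 1.82 ± 0.47 (0.0249). Folr2 (1.07 ± 0.44, adjusted p = 0.173) and Lyve1 (1.01 ± 0.43, 0.187) did not pass. Neither had an NP rat as high as its lowest D21 rat, but the share of all genes separate in this way was not counted on this scale. Folr2 overlapped between the groups before centring. Cd36 (0.75 ± 0.51) and Msr1 (0.20 ± 0.46) overlapped between the groups. Relative to the identity genes, the differences thus ran from 4.06 for Cd163 down to 0.20 for Msr1. This scale is not a level per Mφ, and Hmox1 and Folr2 were not called lower after Mφ depletion in either state (below).

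**Figure D2:**
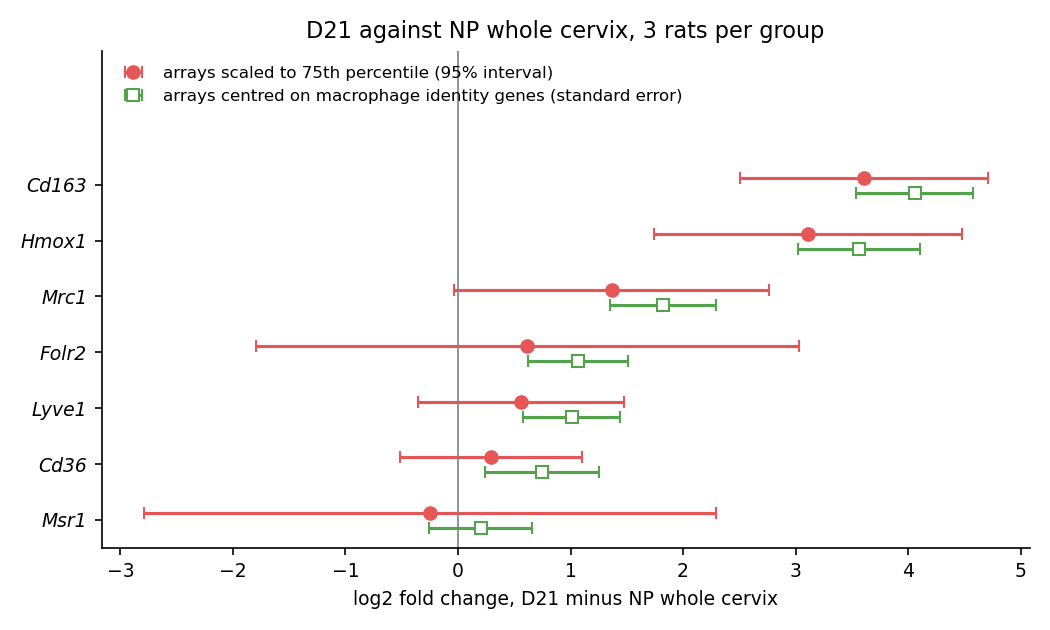
Log2 fold change of 7 genes in D21 against NP whole cervix, 3 rats per group; red circles with 95% intervals are scaled to the 75th percentile of each array and open green squares with standard errors are centred on the mean of 15 Mφ identity genes. The red intervals of Cd163 and Hmox1 lie above 0, that of Mrc1 reaches -0.04, and the green squares lie to the right of the red circles because the identity genes themselves averaged 0.45 log2 units less at D21.

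**Figure D3:**
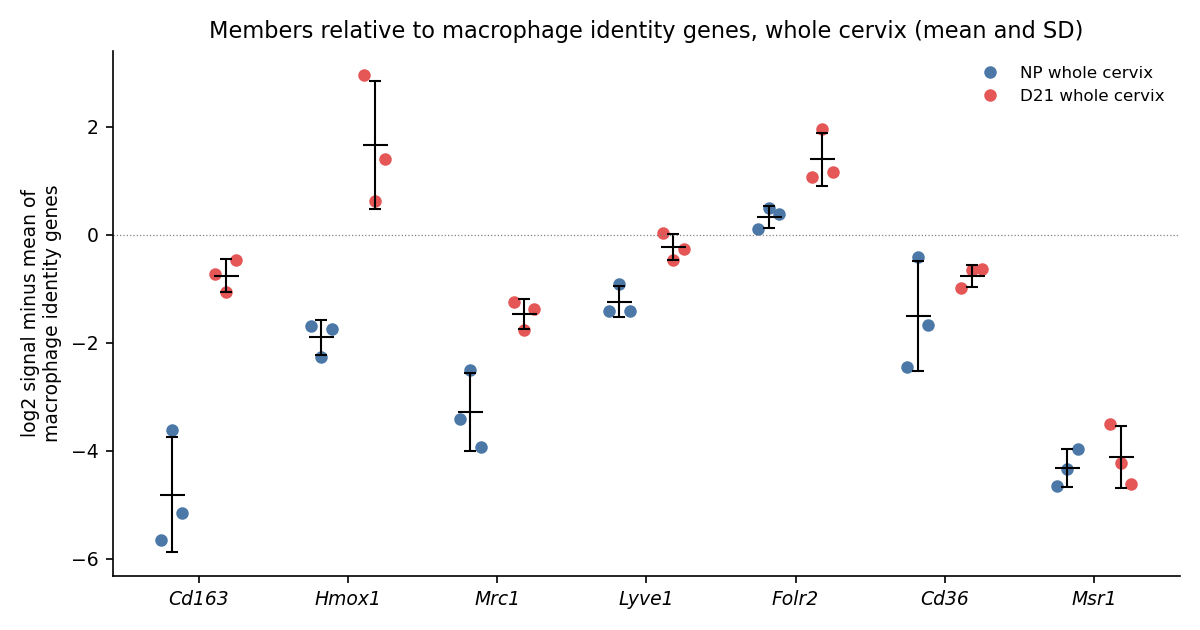
Log2 signal of each gene minus the mean of the 15 Mφ identity genes in the 6 whole cervices, 1 point per rat with the mean and SD of each group. For Cd163 the NP rats lie between -5.66 and -3.62 and the D21 rats between -1.06 and -0.46, the groups are also separate for Hmox1, Mrc1, Lyve1 and Folr2, and they overlap for Cd36 and Msr1. The share of all genes separate on this scale was not counted.

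Whole and Mφ-depleted cervix were compared for the same genes, with the limits given above for the depletion. In D21 rats 4 of 7 genes tested were higher in whole cervix, against 10.0% of all 14262 genes, and in NP rats 4 of 6, against 13.6% of 13419. Mrc1, Lyve1 and Cd36 were called in both states, Cd163 at D21 and Msr1 in NP rats. Folr2 and Hmox1 were called in neither. These comparisons share the whole cervix arrays with those above. Mrc1, Lyve1, Msr1 and, at D21, Cd163 entered the tests only through the whole arrays, where they were high. With every array compared required to be well above background, 1 gene was called in each state.

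Mrc1 was -7.40, -6.92 and -5.49 in D21 and -7.27, -6.82 and -4.53 in NP depleted cells, none well above background. Whole cervix therefore exceeded depleted cervix by at least 22.6-fold at D21 and at least 7.19-fold in NP rats, bounds set against the dimmest detected probes of each depleted array. The limma fit used the background values themselves, with differences of 6.40 ± 0.64 and 4.63 ± 0.64 (adjusted p = 1.37e-04 and 2.69e-04). Lyve1 measured -4.82, -2.96 and -3.49 in D21 and -3.30, -3.28 and -3.84 in NP depleted cells. With 2 of the 3 depleted arrays well above background in each state, it was higher in whole cervix by 4.79 ± 0.42 (adjusted p = 6.71e-05) and 3.95 ± 0.42 (4.54e-05). Its call held in both states in each alternative that could be fitted, while the filter on every array left it no value. Within the third scan day, which held all 6 whole arrays and 1 depleted array of each state, the differences for Lyve1 were 4.52 and 4.31, both against a depleted array not well above background. Of the lymphatic genes, Mmrn1 was also called higher in whole D21 cervix (2.76 ± 0.45). Ccl21 (1.85 ± 0.57) and Flt4 (1.22 ± 0.31) were called higher in whole NP cervix. The other lymphatic genes tested were not called, and the part of these cells in the Lyve1 values was not tested.

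Cd163 measured -4.30, -4.35 and -5.67 in D21 depleted cells, the last not well above background, 5.28 ± 0.50 log2 units below whole cervix (limma adjusted p = 1.07e-04). With normexp this difference was 1.83 and still called. In NP depleted cells it measured -6.55, -6.50 and -4.92 and was not well above background in any of the 3. With 2 of the 3 NP whole arrays well above background it was not tested there, and the means allow a difference of at least 2.49-fold. The change with Mφ removal was larger at D21 than in NP rats by 2.39 ± 0.71. It was called at an unadjusted limma p of 0.00632 but with an adjusted p of 0.109, where 2.44% of all genes were called in that direction. This value contains the whole-cervix rise for which Cd163 was singled out, and so does not test that rise anew. For none of the other 6 genes was this difference between the states called, Mrc1 being nearest with 1.77 ± 0.91 (adjusted p = 0.319). The NP depleted levels of Cd163, and all depleted levels of Mrc1, lay at background, so the size of these differences depends on how background is treated.

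Msr1 varied from rat to rat after depletion. In NP depleted cells it measured -7.51, -7.00 and -4.05, none well above background, and whole cervix was at least 3.51-fold higher. The limma fit used these background values themselves, with a difference of 3.58 ± 1.16 (adjusted p = 0.0346). This NP call was lost in 15 of 24 alternatives. In D21 depleted cells rats 1 and 4 measured -7.46 and -5.54, but rat 2 measured -2.40, within the range of whole cervix. The D21 difference of 2.28 ± 1.16 did not pass (adjusted p = 0.168), and without rat 2 it was 3.64 and was called.

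At its brighter probe Cd36 was well above background on every array. It measured -2.06, -1.47 and -1.14 in D21 and -0.75, -0.66 and -1.48 in NP depleted cells, so some signal remained after Mφ removal. Whole cervix was higher by 2.06 ± 0.37 at D21 (limma adjusted p = 0.00434) and by 1.17 ± 0.37 in NP rats (0.0314). The NP call of Cd36 was lost in 16 of 25 alternatives and the D21 call in 1. At its other probe the differences were 3.35 ± 0.70 and 1.48 ± 0.70, of which the first was called. There 2 of the 3 depleted arrays were well above background in each state. Of 10 vascular endothelial genes 3 were called higher in whole D21 cervix, and in NP cervix 2 were called higher and 1 lower of 9 tested. Among adipocyte genes 1 of 3 was called higher at D21 and 4 of 5 in NP rats, and the part of these cells in the Cd36 values was not tested.

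Folr2 varied widely among the depleted cells. It measured 0.03 and -0.29 in D21 rats 1 and 2 and 1.26 and -2.02 in NP rats 5 and 6, whose arrays were scanned on the first 2 of 3 days. In D21 rat 4 and NP rat 7, scanned on the same day as all whole cervices, it measured 3.15 and 2.64, as high as in whole cervix. These 2 were also the depleted arrays of slide 1, so slide and day cannot be told apart here, and NP rats 5 and 6, which shared a slide and day, were themselves far apart. The pooled differences were 1.70 ± 1.10 at D21 and 1.42 ± 1.10 in NP rats, with limma adjusted p values of 0.273 and 0.346. Within the third scan day they were -0.49 and -0.59, so the direction turned. Cd163, Mrc1, Lyve1, Cd36 and Msr1 kept theirs in both states on that day.

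Hmox1 was not called lower after Mφ removal in either state. It measured 2.51, 3.71 and 2.14 in D21 depleted cells, against which whole cervix differed by 0.14 ± 0.62 (95% interval -1.23 to 1.51). In NP depleted cells it measured 0.93, 1.03 and 0.60, all 3 above the NP whole cervices, a difference of -1.04 ± 0.62 (95% interval -2.41 to 0.33) that did not pass (limma adjusted p = 0.224). Of the same list of oxidant and cell-handling genes, 8 of 14 were called lower in whole than in depleted cervix at D21, against 7.71% of all genes, and 10 of 12 in NP rats, against 10.8%. At D21 all 8 were heat shock or immediate-early genes and no oxidant-response gene was called, while in NP rats Gclc and Srxn1 were among the 10. The largest change was that of Atf3, a stress-induced transcription factor (-5.54 ± 0.47 and -5.27 ± 0.47). The summed linear level of the list's 15 genes was 274 to 336 in D21 and 197 to 270 in NP depleted cells, against 77.6 to 87.3 and 52.4 to 63.3 in whole cervix, and its part in the Hmox1 values was not tested.

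Hmox1 also differed by pregnancy among the depleted cells, by 1.93 ± 0.62 with no overlap between the groups. It was the 1 gene called of 3 tested there, against 5.45% of 13413 genes called higher and 9.52% higher without overlap. Its adjusted p was 0.110 by limma, and 9 of the alternatives other than leaving out a rat ended the call. Within slide 3 the 1 D21 rat exceeded the 2 NP rats by 2.73, and within slide 1 the D21 rat exceeded the NP rat by 1.53. The difference between the states in the effect of depletion was 1.18 ± 0.89 for Hmox1 (adjusted p = 0.494). Cd36 (-0.60 ± 0.37) and Folr2 (0.34 ± 1.10) were not called among the depleted cells, and the other genes were too dim there to test.

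**Figure D4:**
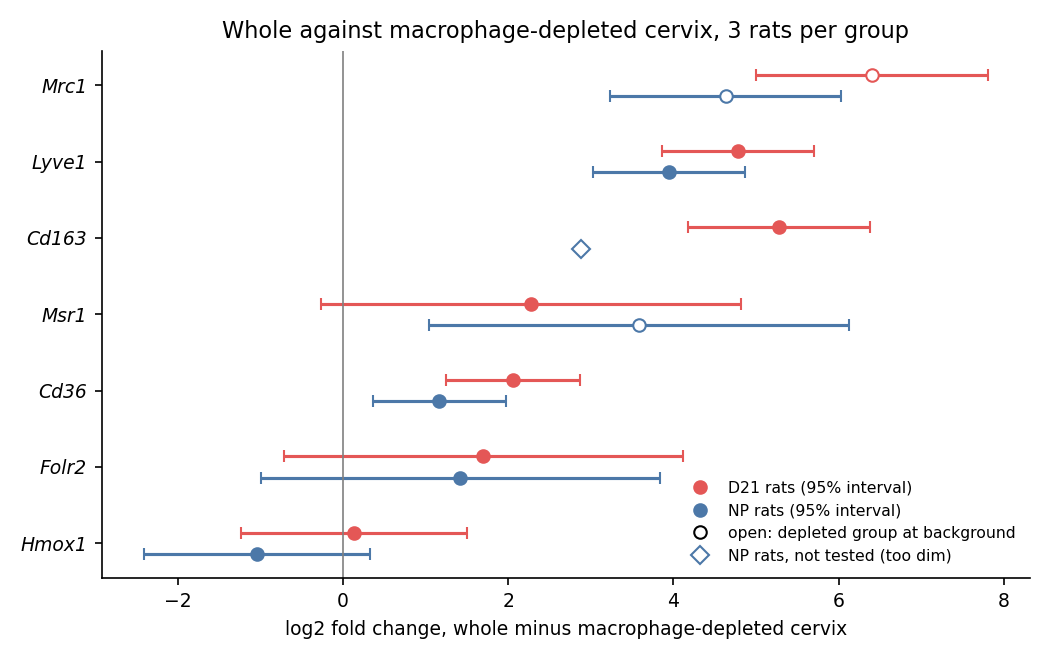
Log2 fold change of 7 genes in whole against Mφ-depleted cervix, 3 rats per group, with 95% intervals, in D21 (red) and NP (blue) rats; open circles mark comparisons in which no depleted array was well above background, where the text gives a bound, and the open diamond marks Cd163 in NP rats, which was too dim to test. The intervals of Lyve1 and Cd36 lie above 0 in both states, and those of Folr2 and Hmox1 include 0 in both.

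The lists of related receptors and pathways that follow held 0 to 2 calls each between NP and D21 whole cervix. Over all genes tested there, 5.38% were called higher and 3.09% lower. Of 15 other scavenger and endocytic receptors tested, none was called higher (1 at an unadjusted p below 0.05) and Olr1, the lectin-like receptor for oxidised lipoprotein, was called lower (-1.73 ± 0.53, limma adjusted p = 0.0821), with a list median of 0.09. Of 18 genes of haem and iron handling, Slc40a1, the iron exporter ferroportin, was called higher (1.30 ± 0.30, adjusted p = 0.0296), and the median was 0.30. Of 15 genes of apoptotic cell clearance, the bridging protein Mfge8 was called higher (1.52 ± 0.46) and Pros1, a ligand of the TAM receptors, lower (-1.17 ± 0.36). Of 12 genes of lipid uptake and storage only the fatty acid binding protein Fabp5 was called, and it was lower (-1.82 ± 0.54). None of 11 tested genes that induce, bind or shed Cd163 was called by limma, and 2 were higher at an unadjusted p below 0.05. Haptoglobin, whose complex with haemoglobin Cd163 takes up, was at -2.24 ± 0.68 in D21 and -1.84 ± 1.12 in NP whole cervix.

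Among 16 other genes of resident and alternatively activated Mφs, Fcna, the ficolin of the lectin complement pathway, was the 1 called at D21 (1.82 ± 0.39, limma adjusted p = 0.0242), and the median was 0.54. F13a1 differed by more (1.97 ± 0.65) but just missed the limit, with an unadjusted limma p of 0.011. Most of the same list was higher in whole than in depleted cervix, where 10.0% of all genes were called higher at D21 and 13.6% in NP rats. Those shares hold for the other lists here too, and stromal transcripts were also poorer in the depleted cells, as given above. At D21 10 of 16 were higher in whole cervix, led by Fcna (5.82 ± 0.39), Ms4a4a (5.47 ± 0.66) and Ms4a7 (5.13 ± 0.24), and in NP rats 10 were higher and 1 lower. For comparison, 14 of 15 Mφ identity genes were higher in whole cervix at D21, with a median of 4.39, and 13 of 14 in NP rats, with a median of 5.09. Of the other scavenger receptors, 4 of 13 were higher in whole D21 cervix and 7 of 14 in NP cervix, Colec12 leading in both (2.98 ± 0.49 and 6.22 ± 0.49), and of the haem and iron genes 7 of 18 and 5 of 16, led by the phagosomal metal transporter Slc11a1 (3.98 ± 0.56 and 2.85 ± 0.56). The complement components C1qc, C1qa and C1qb led the genes of apoptotic cell clearance, 7 of 15 of which were higher in whole D21 cervix.

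The genes whose levels ran most like those of Cd163 over the 12 arrays were F13a1 (Pearson r = 0.947), Gpr20 (0.936), Slc22a3 (0.935), Cadm3 (0.929) and Fcna (0.918), out of 14487 genes. Over the 6 whole arrays the 5 nearest were other genes. Among the receptors, r with Cd163 over the 12 arrays was 0.865 for Mrc1, 0.815 for Lyve1, 0.704 for Cd36, 0.656 for Msr1, 0.499 for Folr2 and 0.330 for Hmox1. Over the 6 whole arrays the order differed, with 0.965 for Mrc1, 0.831 for Hmox1, 0.693 for Lyve1, 0.49 for Cd36 and Folr2 and -0.219 for Msr1. These are descriptions, since the 12 points share the contrast of whole and depleted cells. The 6 share that of D21 and NP, for which Cd163 was singled out.

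RefSeq promoter windows were at hand for 8 of the 10 genes, Stab1 and Timd4 among them but not Hmox1 or Msr1, and the 250 bases before the start of Cd163 and Mrc1 on GRCr8 are shown because these are the receptors called higher at D21 relative to the identity genes. Capitals mark the core GAGGAA bound by PU.1, the lineage factor of Mφs, on either strand. It was found 2 times in the Mrc1 window, at chr17:82157475-82157724, and not in that of Cd163, at chr4:158770524-158770773, and 23.3% of all 33469 windows of this length held it. The antioxidant response element TGACNNNGC was in none of these 8 windows, which do not include that of Hmox1, and in 10.1% of all. No match says only that these letters are not in this window.
Cd163: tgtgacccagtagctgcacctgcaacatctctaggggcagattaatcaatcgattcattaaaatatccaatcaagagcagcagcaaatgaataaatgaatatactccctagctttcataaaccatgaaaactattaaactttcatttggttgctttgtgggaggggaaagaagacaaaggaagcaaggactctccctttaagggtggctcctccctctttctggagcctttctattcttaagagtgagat
Mrc1: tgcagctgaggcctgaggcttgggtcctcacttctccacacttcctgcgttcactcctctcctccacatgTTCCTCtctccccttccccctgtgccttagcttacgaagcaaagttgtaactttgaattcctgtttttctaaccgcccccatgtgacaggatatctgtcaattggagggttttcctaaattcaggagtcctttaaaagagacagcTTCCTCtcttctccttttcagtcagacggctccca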

How the data were processed

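RNA from 12 rat cervix samples, 3 rats in each of 4 groups, was hybridised to 1-colour Agilent arrays. The authors deposited scanner output of Feature Extraction 9.5.3.1, with background-subtracted intensity per spot, and a table in which each value is the ratio to the 75th percentile of its array. Here log2 processed intensity minus log2 of that percentile was used. Outlier spots (294 to 648 per array) were left out, spots of a probe were averaged, and a gene was represented by its brightest probe. Accessions of 57.1% of the probes matched RefSeq, and other probes kept the name in the file. A gene entered a test if every array of 1 of the groups compared measured it well above background. The fit was made in limma 3.58.1 (R 4.3.3) with 4 group means over all 12 arrays, and p-values were adjusted by Benjamini-Hochberg. The fit was tested on simulated data. Groups came from the labels, and the precision is limited by the number of arrays. The genes, lists, named-gene rule (all 10 receptors, and the 3 largest called changes of a list) and tests were chosen with earlier results of these data known. Other normalizations, filters, tests, blocks and left-out rats were tried. A bound ("at least") compares the brighter group's mean with a floor on each dim array, its faintest signal rated well above background, or with the dim probe itself where that was brighter. Replicates were separate rats.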

Additional observations from a re-analysis of the deposited data

How the results depend on the processing

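No paired analysis was possible because the groups compared share no rat numbers. For single genes, 627 recomputed values kept their direction and side of the threshold, 61 lost the call, 12 gained it and 31 changed sign. The Cd163 calls for D21 against NP whole cervix and against depleted D21 cervix, and the Lyve1 calls against both depleted groups, held in each alternative that could be fitted, but normexp background correction, which compresses dim signals, moved Cd163 from 3.61 to 2.22 and from 5.28 to 1.83. Depth over background limits Marco, and Cd163, Mrc1 and Msr1 in depleted cells.

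The filter on every array left no value for a gene not above background on each array compared. The number of genes called higher at D21 in whole cervix, 2, became 1 when only genes above background on every array were kept, and leaving out a rat gave 2 to 3. Against depleted D21 cervix the 4 called became 1 with that filter and 4 to 5 without a rat. Against depleted NP cervix the 4 became 1 with Welch's test, 2 with normexp, 1 with the filter on every array, 2 with the slide and 2 with the scan day as a block, and 2 to 4 without a rat, where leaving out NP depleted rat 5, NP whole rat 9 or 10, or any D21 whole rat gave 2. Among depleted cells the 1 call, Hmox1, became 0 with Welch's test, adjusted p, normexp, quantile normalization, the percentile over detected probes, no filter, array weights, the slide and the scan day, and ranged from 0 to 2 without a rat. It was lost without any NP depleted rat, D21 depleted rat 1 or 2, NP whole rat 8 or D21 whole rat 7. The 1 call for the difference between the states, Cd163, became 0 with adjusted p, normexp, the filter on every array and array weights and 2 with quantile normalization and the scan day, and ranged from 0 to 1 without a rat. It was lost without NP depleted rat 7, D21 depleted rat 4, NP whole rat 8 or D21 whole rat 5 or 7. With the slide as a block the call passed from Cd163 to Mrc1.

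Values that changed sign were all uncalled. For D21 against NP whole cervix, Msr1 became 0.00819 with normexp and 0.20 relative to identity genes (-0.62 to 0.21 without a rat), and with the slide as a block Cd36 became -0.11 (-0.0918 to 0.49 without a rat) and Folr2 -0.00052. Against depleted D21 cervix, Msr1 became -0.10 with normexp and -0.50 with the slide, Hmox1 -0.016 with array weights and -0.63 with the slide (-0.52 to 0.62 without a rat), and Folr2 -1.29 with the slide and -0.37 with the scan day. Against depleted NP cervix Folr2 became -1.01 with the slide and -0.71 with the scan day, and among depleted cells it ranged from -0.98 to 1.35 without a rat. For the difference between the states, Mrc1 became -0.13 with normexp, Lyve1 -0.40 with normexp and -0.18 with the slide, and Folr2 -0.11 with array weights and -0.28 with the slide (-0.73 to 1.60 without a rat), while Msr1 ranged from -2.47 to 0.0623 without a rat. The causes were not tested.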
